A study of Mus musculus with 9 samples.

Results

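Napsa, Arfgef3, Bfsp2 and Mme are 4 of the 16299 genes measured by RNA sequencing in melanocytes, the cells that make skin pigment, after cell sorting of mouse epidermis. They were picked by symbol from the deposited table because earlier readings of the same values had shown them low in back skin. The values that chose them are therefore those of knockout back against knockout tail, and that contrast is given below as a description, with no test. Across the 9 libraries the 4 genes shared one arrangement: 1043 or more normalised counts in every tail library, and 0 to 770.2 in every back library.

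The genes encode proteins of unrelated classes. Napsa encodes napsin A, an aspartic protease of the pepsin family best known from lung alveolar type II cells, where it takes part in the maturation of surfactant protein B. Mme encodes neprilysin, also called CD10, a zinc peptidase anchored in the plasma membrane with its active site outside the cell, which cleaves small peptides such as enkephalins and endothelins. Endothelins made by keratinocytes are growth signals for melanocytes, which receive them through the receptor EDNRB. Arfgef3 encodes a large protein related to the Sec7 domain exchange factors that load ARF GTPases, the switches of vesicle budding. Bfsp2 encodes phakinin, which forms the beaded filaments of lens fibre cells together with filensin.

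There were 3 groups of 3 libraries. Control tail melanocytes came from the tail epidermis of Spry1flox/flox mice. The knockout tail group and the knockout back group came from Spry1flox/flox k14-Cre-ERT2 mice, from tail and from back epidermis. All 3 groups thus carry the floxed Spry1 allele, and the back has no control group, so site was compared only within the Cre genotype. Cre-ERT2 is a recombinase made inducible by a hormone receptor domain, and the keratin 14 promoter drives it in basal keratinocytes, not in the sorted cells. Age and inducing agent: not given in the sources used here. Whether the libraries of a group stem from different mice is not stated, so each p-value reflects the spread among these libraries alone, some of which may be technical. Counts of sex-linked genes, given at the end, differed within knockout tail and between back and tail.

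Recovered totals ran from 45.7 to 67.9 M (mega) counts per library. Genes at 0 counts numbered 4628 and 6127 in the first and second back library, and 854 to 1739 in the other 7, which is why the third back library is read apart. A normalised count is the recovered count over that library's size factor. Deposited values are on a log2 scale from which a shift between the third knockout tail and the third back library on one side, and the other 7 on the other, had been removed gene by gene. Spry1 itself had counts of 1915, 1298 and 1587 in the controls, 4446, 2082 and 508 in the knockout tail libraries, and 2120, 0 and 761 in those from back, which says little of the deletion, since Cre is not driven in the sorted cells. In bulk libraries fewer cells of a type and less RNA per cell cannot be told apart.

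RefSeq start sites on GRCm38.p6 gave upstream windows for Arfgef3, Bfsp2 and Mme, and not for Napsa. They are shown because these genes were low in the same libraries, so that the letters can be read beside the levels. Each is the 250 bases before the start site, 5′ to 3′ on the strand of the gene, and capitals mark a motif match.
Arfgef3, chr10:18743759-18744008, minus strand: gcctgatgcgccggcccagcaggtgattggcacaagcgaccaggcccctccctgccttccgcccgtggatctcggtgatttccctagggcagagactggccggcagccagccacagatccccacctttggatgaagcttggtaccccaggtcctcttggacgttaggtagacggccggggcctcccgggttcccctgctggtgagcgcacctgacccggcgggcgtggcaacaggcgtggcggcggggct
Bfsp2, chr9:103449177-103449426, minus strand: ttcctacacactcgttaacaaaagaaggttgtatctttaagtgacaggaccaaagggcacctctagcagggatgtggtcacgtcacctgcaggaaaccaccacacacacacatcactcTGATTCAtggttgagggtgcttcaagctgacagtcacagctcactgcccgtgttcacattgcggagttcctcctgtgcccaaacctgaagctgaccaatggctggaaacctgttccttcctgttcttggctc
Mme, chr3:63294961-63295210, plus strand: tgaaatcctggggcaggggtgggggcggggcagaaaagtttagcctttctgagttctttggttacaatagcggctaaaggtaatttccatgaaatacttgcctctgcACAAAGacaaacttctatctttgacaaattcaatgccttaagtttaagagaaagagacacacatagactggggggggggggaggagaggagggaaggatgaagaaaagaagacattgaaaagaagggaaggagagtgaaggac
The motifs searched on both strands were CATGTG and CACGTG, E-boxes of the kind bound by MITF, ACAAAG and ACAATG, core letters of SOX sites, and TGANTCA, the AP-1 site. Matches to different motifs could overlap. The Arfgef3 window held none of the 5, and the Bfsp2 window held TGANTCA, beginning 132 bases before the start site. The Mme window held ACAAAG, beginning 143 bases before the start site. Mme had 2 further RefSeq windows, not shown, of which one held TGANTCA. Among 32851 windows of the same length, TGANTCA was found in 6.75%, ACAAAG in 16.5%, CATGTG in 12.3%, ACAATG in 10.7% and CACGTG in 6.02%. The windows held 68.4% G and C in Arfgef3, 50.8% in Bfsp2 and 45.6% in Mme, beside a median of 52.4% over all windows. The start sites of the Arfgef3, Bfsp2 and Mme windows lie inside the GENCODE spans given below, not at their ends. Those of the Arfgef3 window and the Mme window shown match the start of the RefSeq gene, and that of the Bfsp2 window does not. A match is a description of letters and was not tested for binding.

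Napsa lies on chromosome 7 from 44572380 to 44586862, plus strand (GRCm38, GENCODE vM21, ENSMUSG00000002204.9, protein coding). The control tail libraries held 5012, 5948 and 13279 normalised counts, the knockout tail libraries 8984, 9904 and 5202, and the back libraries 0, 0 and 181. The tail groups overlapped, with means of 8079.7 ± 4527 in control and 8030.1 ± 2492 in knockout (SD, n = 3), and every back library lay below every tail library. The back mean was 60.4 ± 105 (SD, n = 3), and it came wholly from 185 counts in the third library. The knockout tail mean was 133 times the back mean. Between the third libraries of the 2 sites alone it was 28.7-fold.

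Mme lies on chromosome 3 from 63241537 to 63386030, plus strand (ENSMUSG00000027820.12, protein coding). The control tail libraries held 3168, 2000.1 and 1947 normalised counts, the knockout tail libraries 4651, 6123 and 6549.7, and the back libraries 4.31, 111 and 770.2. No 2 groups overlapped, and the order was back, control tail, knockout tail. Means were 295 ± 415, 2372 ± 690 and 5775 ± 996 (SD, n = 3), and knockout tail was 19.6 times back. Mme was the one gene of the 4 with counts in all 3 back libraries, which recorded 4, 95 and 786. The third back library reached 39.6% of the lowest tail library, a control, and 8.50-fold separated it from the third knockout tail library.

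Arfgef3 lies on chromosome 10 from 18581839 to 18743949, minus strand (ENSMUSG00000019852.7, protein coding). The control tail libraries held 1566, 1043 and 1962 normalised counts, the knockout tail libraries 3811, 4014 and 9417, and the back libraries 4.31, 0 and 0. All 3 groups were apart from each other, and back held 4 counts in total over its 3 libraries. Means were 1524 ± 461, 5747 ± 3179.8 and 1.44 ± 2.49 (SD, n = 3). The ratio of knockout tail to back was 4003, but with so few counts its size is poorly fixed. A count of 0 in the third back library allows up to 3 counts, or 2.94 normalised, and against that limit the third knockout tail library was at least 3204-fold higher. Arfgef3 was thus as low in the third back library as in the sparse ones. Its span touches Gm32926 on the opposite strand, which also had 0 counts in all 3 back libraries and 37.1 to 185 normalised counts in the tail. Strand use in the counting is unknown, so reads from the overlap cannot be assigned to one of them. The spans of Napsa and Bfsp2 also touch annotated genes, 1 and 2 in number, that are not among those measured.

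Bfsp2 lies on chromosome 9 from 103424924 to 103480420, minus strand (ENSMUSG00000032556.11, protein coding). The control tail libraries held 4723, 4379 and 2955 normalised counts, the knockout tail libraries 7150.0, 8418 and 5239, and the back libraries 0, 0 and 596. The groups did not overlap, and the order was again back, control tail, knockout tail, with means of 199 ± 344, 4019 ± 937 and 6936 ± 1601 (SD, n = 3). Knockout tail was 34.9 times back by group means and 8.79-fold between the third libraries. The third back library stood at 20.2% of the lowest tail library.

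**Figure D1:**
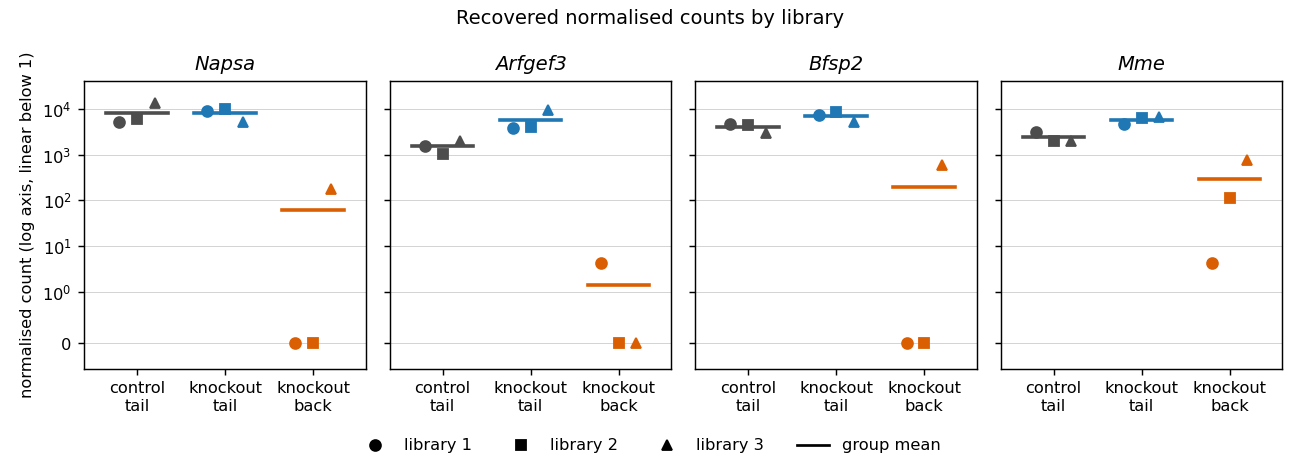
Normalised count (log axis, linear below 1) of Napsa, Arfgef3, Bfsp2 and Mme in each of the 9 libraries, by group, with marker shape for the library number and a bar for the group mean. The back libraries lie between 0 and 770.2 and every tail library lies at 1043 or above.

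The deposited log2 differences of back minus knockout tail were -4.64 for Napsa, -4.45 for Arfgef3, -4.18 for Bfsp2 and -3.49 for Mme, with standard errors of 0.58, 0.40, 0.54 and 0.42. Over the whole table limma, with Benjamini-Hochberg adjustment, called 177 of 16299 genes lower in back, or 1.09%. The 4 genes are among the 177, and since this contrast chose them, nothing is read from that. The number was unstable: 1500 genes were called lower without the third back library, 2 without the third knockout tail library and 0 without the first and second back library. Of the 4 genes these settings held 4, 1 and 0, the 1 being Arfgef3. By size of the difference the 4 stood at places 2, 4, 5 and 8 of the called genes. Prl2c5, a prolactin family gene, was first at -6.06, the unnamed model Gm14226 lay between Napsa and Arfgef3 at -4.56, and Gm16861 and the keratin gene Krt6b lay between Bfsp2 and Mme at -3.64 and -3.55. The next after Mme were Lhfp at -3.49 and Chaf1b at -3.48. On this scale a difference understates the change of a gene near 0 counts, and the value of 0 counts differs between genes because of the removed shift: a back library at 0 counts read 7.58 in Napsa and 8.01 in Bfsp2.

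Since the first and second back library held many genes at 0 counts, the levels were also read against other genes of like abundance. Among 4979 genes with at least 1000 normalised counts in every tail library, 88 had at most 4 counts in both the first and the second back library, which is 1.77%. Napsa, Arfgef3 and Bfsp2 are 3 of these 88, and Mme, with 95 counts in the second, is not. In 53 of the 88 the third back library was not below all tail libraries, and over all 88 its median stood at 118% of the lowest tail library. A near absence from the first and second back library thus often came without a low level in the third.

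In the third back library the 4 genes were low too. That library is part of the contrast that chose them, so its levels are a description and no separate support. Each lay below all 6 tail libraries, as did 17.2% of all 16296 genes with recovered counts and 24.6% of the 4979. The third back library stood at 25% or less of the lowest tail library in 31 of the 4979, which is 0.623%. Napsa at 3.62%, Arfgef3 at 0% and Bfsp2 at 20.2% are among these 31, and Mme at 39.6% is not. All 3 back libraries lay below all 6 tail libraries in 6.39% of genes, the 4 included. A sparse pair of first and second libraries met a level of 25% or less in the third in 6 genes, listed after their values were seen: Napsa, Arfgef3, Bfsp2, Fam71f1, Gm14226 and Meis2, a homeobox gene. Arfgef3 and Fam71f1 were the 2 of the 88 with at most 4 counts in every back library.

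**Figure D2:**
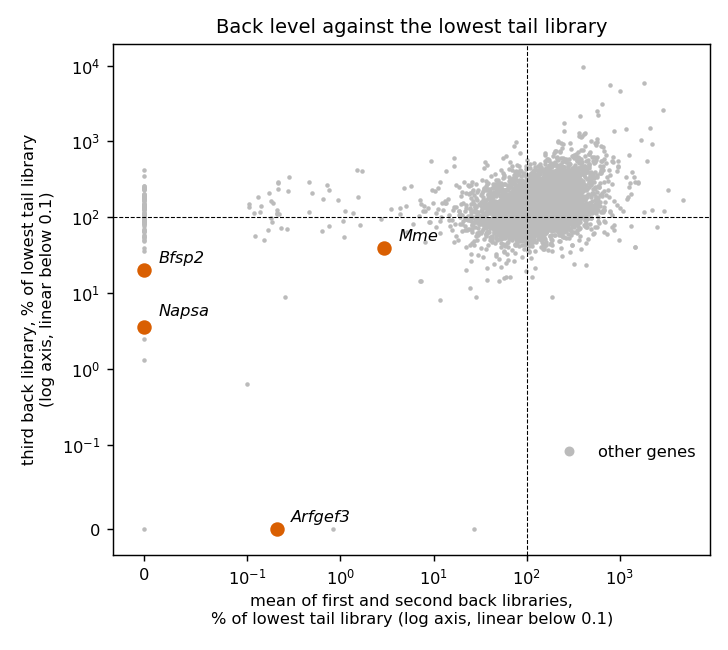
Each point is 1 of 4979 genes with at least 1000 normalised counts in every tail library; the axes give the mean of the first and second back library, and the third back library, as a percent of the lowest tail library (log axes, linear below 0.1, dashed lines at 100%). Napsa, Bfsp2 and Arfgef3 lie at the left edge or near it, with 3.62%, 20.2% and 0% in the third back library, and Mme lies at 2.96% and 39.6%.

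The tail groups offer the one contrast without the back libraries. The choice of the 4 genes did not use the control libraries, but it did use those of knockout tail. This contrast asks how tail melanocytes differ when Spry1 deletion is aimed at the keratinocytes around them. Mme, Arfgef3 and Bfsp2 had a higher mean in knockout tail, and in each the 3 knockout libraries lay above the 3 controls, an arrangement found in 6.44% of all genes. A choice on back against knockout tail favours genes with high knockout tail values, and so leans this contrast upward. Nothing is therefore read from that share. None of the 4 genes passed the test. Limma called 0 of 16299 genes, or 0%, in this contrast, and limma-voom likewise called 0. Without adjustment 814 genes had a limma p under 0.05.

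Arfgef3 had deposited values of 11.08, 10.64 and 11.34 in the controls and 12.16, 12.22 and 13.19 in the knockout libraries. The difference was 1.50 on the log2 scale (SE 0.40, limma adjusted p = 0.61), and the normalised means differed 3.77-fold. The third knockout tail library was the highest, and without it the difference was 1.17.

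Mme had 12.13, 11.57 and 11.54 against 12.63, 12.99 and 12.48. The difference was 0.95 (SE 0.42, limma adjusted p = 0.995), and 2.43-fold in normalised means. The groups did not overlap, but the highest control and the lowest knockout library were close neighbours.

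Bfsp2 had 12.38, 12.28 and 11.78 against 12.93, 13.15 and 12.45. The difference was 0.70 (SE 0.54, limma adjusted p = 0.9997), and 1.73-fold in normalised means. The first control library and the third knockout library were nearly level.

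Napsa had 12.03, 12.25 and 13.35 against 12.81, 12.95 and 12.87. Its difference of 0.33 (SE 0.58, limma adjusted p = 0.9997) was within the spread between libraries, and the third control library was the highest of all 9. The fold of the normalised means was 0.994. The shift removed from Napsa was 0.80, the mean of the 7 libraries minus that of the other 2, and its removal raised the third knockout tail library in the deposited values. For Arfgef3, Bfsp2 and Mme the shift removed was -0.18, -0.06 and -0.60. The exact two-sided permutation p over 3 against 3 libraries was 0.1 for Arfgef3, Bfsp2 and Mme, the smallest this design allows, and 0.4 for Napsa.

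**Figure D3:**
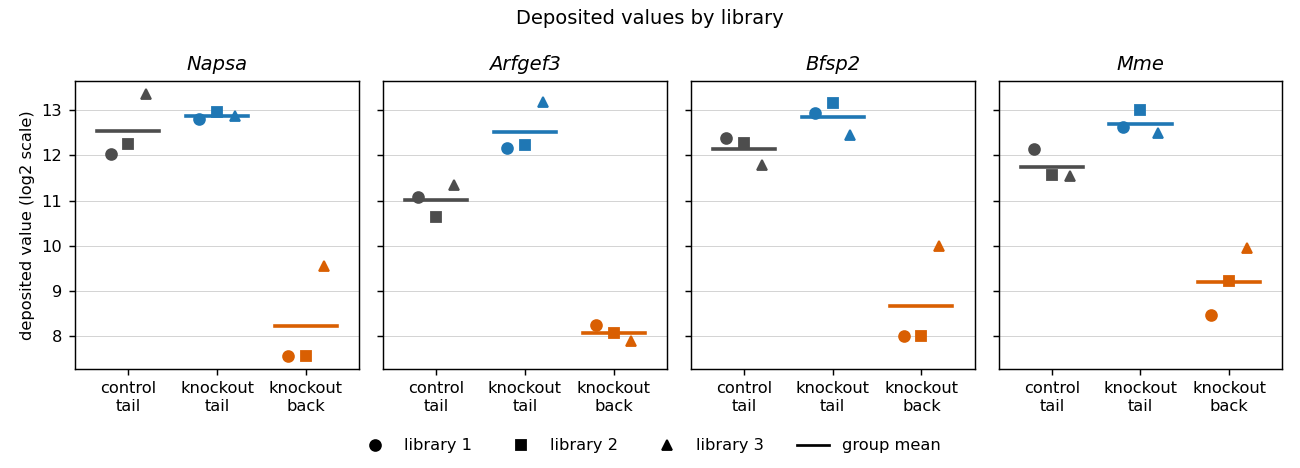
Deposited values (log2 scale) of the 4 genes in each library, with marker shape for the library number and a bar for the group mean. Knockout tail lies above control tail without overlap in Arfgef3, Bfsp2 and Mme, and the tail groups overlap in Napsa; the third back library lies above the other back libraries in Napsa, Bfsp2 and Mme.

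Back against control tail differs in both site and Cre, and it shares the back libraries with the choosing contrast, so it is also given with no test. The log2 differences were -4.30 for Napsa, -2.95 for Arfgef3, -3.48 for Bfsp2 and -2.54 for Mme, with the same standard errors as above. Control tail exceeded back by 134, 1061, 20.2 and 8.03 times in normalised means. Mme was the closest to its controls: the lowest control library was 2.53 times the third back library, against 4.96 times for Bfsp2 and 27.7 times for Napsa.

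Per kilobase of exon, which allows genes to be compared, Bfsp2 and Napsa were the abundant members in the tail. Knockout tail means were 4085 normalised counts per kilobase for Bfsp2 and 3019 for Napsa, and 500.3 for Mme and 394 for Arfgef3. In control tail they were 2367, 3038, 205 and 105 in that order of genes, so Napsa led there and Bfsp2 led in knockout tail. Over both tail groups Bfsp2 and Napsa exceeded 92.4% and 92.0% of the genes with an exon length, and Mme and Arfgef3 exceeded 62.6% and 56.2%. In back the values were 117 for Bfsp2, 22.7 for Napsa, 25.6 for Mme and 0.0985 for Arfgef3.

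The nearest measured genes on either side gave a local comparison. Napsa is flanked by the DNA polymerase gene Pold1 and the nuclear receptor gene Nr1h2 on one side, and by the myosin gene Myh14 and the kinase gene Vrk3 on the other. Their back minus knockout tail differences were -0.16, -0.81, 0.34 and -1.31. For Arfgef3 they were -1.28 in Nhsl1, -0.67 in Hebp2, -0.97 in Gm32926 and 0.62 in Perp, a desmosome protein gene. For Mme they were -0.89 in Dhx36, -0.07 in Gm8388, -0.78 in Plch1 and -0.59 in E130311K13Rik. All of these were smaller in size than the difference of the gene they flank, and none was called by limma. The 4 genes were chosen for a large difference, so nothing is read from the smaller size. Limma called only 1.09% of all genes lower in back and 0.411% higher.

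Bfsp2 had one neighbour with a similar profile. Tmem108, a transmembrane protein gene on the same strand, lies 2.53 kilobases away. The control tail libraries held 1648, 736 and 1114 normalised counts, the knockout tail libraries 4034, 4341 and 2520.4, and the back libraries 0, 0 and 1469. As in Bfsp2, every knockout tail library lay above every control, though the order among the controls differed. The third back library lay within the control range. The back minus knockout tail difference was -3.02 (limma adjusted p = 0.059). The other neighbours of Bfsp2, Topbp1, Cdv3 and 4932413F04Rik, differed by 0.49, 0.61 and 0.27.

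**Figure D4:**
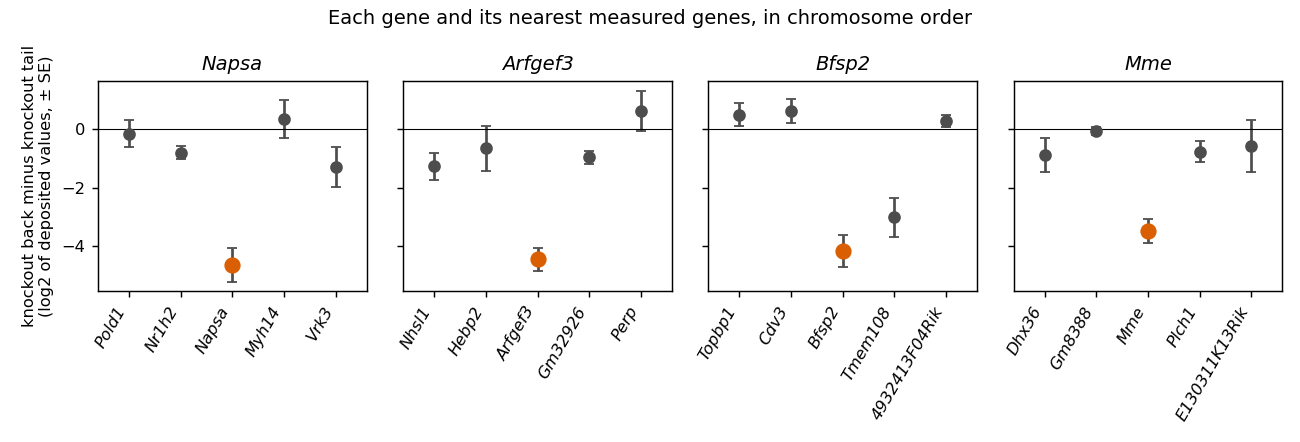
Back minus knockout tail difference (log2 of deposited values, bars ± SE) of each gene, in orange, and its 2 nearest measured genes on each side in chromosome order. Napsa, Arfgef3, Bfsp2 and Mme lie between -4.64 and -3.49; of the flanking genes Tmem108, at -3.02, is the lowest and the others lie between -1.31 and 0.62.

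The 4 genes resembled each other over the 9 deposited values, with Pearson correlations from 0.89 between Arfgef3 and Bfsp2 to 0.98 between Bfsp2 and Mme. Without the first and second back library, over 7, they ran from 0.82 between Napsa and Mme to 0.97 between Bfsp2 and Mme. These are descriptions over libraries that share the low back values used to choose the genes.

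The 5 genes of the whole table with the highest correlation were then listed for each of the 4. Highest for Napsa were Eif2c5 (r = 0.996 over 9 libraries, 0.984 over 7), Car9, Slc7a4, Arfgef2 and D1Ertd622e, and each had at most 17.2 normalised counts in the first and second back library. Highest for Arfgef3 was Gpr137b (0.990 over 9, 0.986 over 7), which kept 15495, 15874 and 16585 normalised counts in back against 42786 to 84134 in the tail, followed by Nsl1, Chaer1, Cd55 and Gm43857. Highest for Bfsp2 were Trmo (0.996 over 9, 0.987 over 7), Chid1, Gm128, Eci3 and Thsd1. Highest for Mme were the proteasome gene Psmd2 (0.985 over 9, 0.964 over 7), Gm128, Zc3h10, Tlr3 and Thsd1. Gm128 and Thsd1 appear for both Bfsp2 and Mme. Of the genes listed here Gpr137b and Psmd2 were the abundant ones with many counts in the sparse back libraries.

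Relatives and partners of the 4 were taken from 11 lists, of whose 99 entries 49 were measured. In back against knockout tail 1 was called higher, beside 0.411% of all genes, and 0 were called lower. In knockout tail against control tail 0 were called. Positive differences numbered 20 of 49 in back and 21 of 49 in knockout tail, where 36.7% and 44.4% of all genes were positive.

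Among peptidases, the neprilysin relative Ece1, which makes active endothelin, differed by 0.40 in back and was the one measured of 6 other family members. Of 8 other cell surface peptidases 4 were measured, with a median of -0.59 beside -0.18 over all genes, and Anpep, an aminopeptidase, differed by -1.39 (limma adjusted p = 0.13). Peptide precursors that neprilysin can cleave had 6 of 11 measured and a median of 0.04. Npy, the precursor of neuropeptide Y, held 14461, 25958 and 8638 normalised counts in knockout tail and 60738, 67382 and 26250.0 in back. These groups barely parted, and the difference was 1.65 (SE 0.29, limma adjusted p = 0.038). It passed in 5 of 19 other settings, with limma adjusted p from 0.025 to 0.32. The controls, at 51312, 41116 and 24971, overlapped back. Back minus control tail was 0.75 (limma adjusted p = 0.14), and knockout tail minus control tail was -0.90 (limma adjusted p = 0.72). Of 10 receptors 5 were measured, with a median of 0.05, and the endothelin receptor Ednrb differed by 0.05.

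Among aspartic proteases the lysosomal Ctsd and the memapsins Bace1 and Bace2 were measured, 3 of 6. Their back differences were -0.44, -0.21 and -0.67, with a median of -0.44, and none was called. Of the 7 lung surfactant genes linked to napsin A only the lipid transporter gene Abca3 was measured, at -0.83. In the third back library it held 1100.4 normalised counts, above every tail library, and in the other back libraries 0.

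Among Sec7 domain exchange factors 12 of 15 were measured, with a median of -0.10. Arfgef2, the exchange factor of the trans-Golgi network and recycling endosomes, had normalised counts of 859, 813 and 1381 in the controls, 1096, 1016 and 967 in the knockout tail libraries, and 17.2, 0 and 247 in those from back. Back lay below the tail in all 3 libraries. The difference was -1.98 (SE 0.40, limma adjusted p = 0.052), which did not pass. Arfgef1, its closest relative, differed by 0.42. The 6 ARF GTPases had a median of -0.08, with Arf1 at -0.22 and Arf2 at -1.55. Prohibitin partners and the oestrogen receptor, 3 of 3 measured, had a median of -0.22, with Phb2 at -0.48.

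Among non-keratin intermediate filaments 6 of 14 were measured, with a median of -0.19. Vimentin, Vim, differed by -0.21 and lamin A, Lmna, by -0.65 (limma adjusted p = 0.057). Lens fibre genes had 2 of 13 measured, the crystallin gene Cryab at 1.32 and the connexin gene Gja3 at -0.63. Cryab had 5139 to 9751 normalised counts in back and 2242 to 2809 in knockout tail, the opposite order to Bfsp2, and was not called (limma adjusted p = 0.081).

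The sorted cells were checked against markers of melanocytes and of other cells. All 14 melanocyte markers were measured, and the summed normalised count of the 11 with recovered counts was 989455 to 1087410 in the controls, 1230740 to 1408010 in knockout tail and 1308010 to 1391460 in back. These sums leave out Pmel, Dct and Tyrp1, whose counts were not recovered. They had the highest deposited means of the 14, from 19.76 to 20.93 over the groups, so the sums do not give the total of the list. Without Mlana, a melanosome protein gene, the sum of the other 10 was 723088 to 772378 in the controls, 914243 to 1226730 in knockout tail and 710383 to 973447 in back, so back and control overlapped. Mlana itself rose in back against knockout tail, by 0.95 (limma adjusted p = 0.021). Differences of back minus knockout tail were positive in 6 of the 14, with a median of -0.18, and were -0.94 in Pmel, -0.56 in Tyr and -1.76 in Oca2. In Tyrp1 the difference was -0.65 and in Dct 0.06. All 14 had a positive difference in knockout tail, the direction of Arfgef3, Bfsp2 and Mme, and 0 were called. The part of melanocyte markers in those differences was not tested.

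Keratinocyte transcripts varied by library. The 7 basal markers summed to 39033 to 100246 in control tail, 12718 to 325924 in knockout tail and 39208 to 190386 in back, so all groups overlapped, and the highest value in each knockout group was in the third library. The 8 measured of 9 differentiated markers summed to 27892 to 112745, 14582 to 159843 and 37889 to 204455. The 8 measured of 9 hair follicle markers summed to 37434 to 130563, 23612 to 329849 and 20973 to 128103. The third knockout tail library, with the highest sum of its group in all 3 lists, was also the highest of its group for Arfgef3 and Mme in normalised counts, and the lowest for Napsa and Bfsp2. The part of keratinocyte RNA in these levels was not tested.

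**Figure D5:**
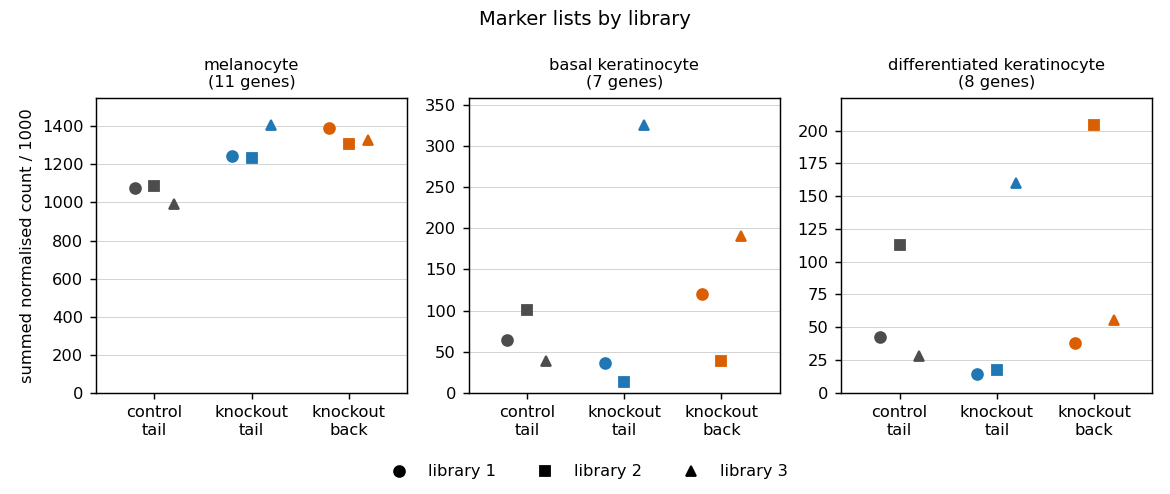
Summed normalised count, divided by 1000 on the axis, of melanocyte, basal keratinocyte and differentiated keratinocyte markers in each library, by group, with marker shape for the library number. Melanocyte sums, which leave out Pmel, Dct and Tyrp1, lie between 989455 and 1408010 in all libraries. The basal keratinocyte sum reaches 325924 in the third knockout tail library.

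Other lists moved with the groups as well. Langerhans and myeloid markers, 8 of 10 measured, summed to 846 to 2613 in control tail, 811 to 12024 in knockout tail and 7348 to 26907 in back. Schwann and nerve markers, 5 of 6, summed to 22464 to 25888, 21582 to 26477 and 30470.1 to 52372. The 5 fibroblast markers of 7 summed to 1417 to 2781, 2534 to 4395 and 3958 to 10850.2. Merkel cell markers, 2 of 5, summed to 0 to 166, 0 to 945 and 480.1 to 5788. Back had the higher sums in these lists, with overlap of the knockout tail range in all but the Schwann list, while the 4 genes were low there. Cd207, which defines Langerhans cells, was not among the measured genes.

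The 2 measured of 6 mast cell and granulocyte genes, S100a8 and S100a9, had lower sums in back. These were 11605 to 15849 in control tail, 9304 to 20798 in knockout tail and 4291 to 6729 in back. Most of each sum was S100a8. S100a9 did not run with the 4 genes: it held 0, 0 and 3.24 normalised counts in the controls. In the third back library it held 2243, beside 2289 in the third knockout tail library. The defining mast cell genes Cpa3, Mcpt4, Tpsb2 and Cma1 were not among the measured genes. Haemoglobin genes led the 5 measured of 8 erythroid, muscle and fat markers, which summed to 639 to 9219, 2489 to 104465 and 6051 to 25386. Knockout tail had its highest sums in its first and second libraries. T cell markers, 3 of 7, stayed at or below 623, the 1 of 6 endothelial markers, Vwf, at or below 1257, and 0 of 5 B cell markers were measured. The part of these cells in the levels of the 4 genes was not tested.

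Sex-linked transcripts also differed between libraries. Counts of the Y-linked gene Eif2s3y were 154, 0 and 9 in the controls, 4890, 5677 and 0 in the knockout tail libraries, and 3275, 2543 and 3922 in those from back. Xist, from the inactive X, had 5354, 1711 and 4908, then 5, 19 and 6364, then 1313, 1266 and 2699. The third knockout tail library had the control-like pattern. It lay above all controls in Arfgef3, Bfsp2 and Mme. In Bfsp2, at 5239 normalised counts, it was nearer to the first control, at 4723, than to the other knockout tail libraries, at 7150 and 8418. The part of sex in these levels was not tested. In the first and second libraries of knockout tail, sex-linked transcripts and Cre differed together from the controls, and these cannot be told apart there. Each back library held 1266 or more counts of both Eif2s3y and Xist, which no tail library did. Sex-linked transcripts and site thus differed together in back against knockout tail, and these cannot be told apart either.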

How the data were processed

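Libraries of melanocytes from 3 groups (3 each) were made with a SMART-Seq kit and sequenced in pairs, per the labels' protocols. The deposited table holds values on a log2 scale, made by the authors. DESeq2 and GRCm38 are named, role unstated, per the submitters' processing notes. Aligner, counting program and strand setting: not given in the sources used here. From the values themselves, they follow a variance-stabilising curve, with a shift between 2 and 7 libraries removed. Undoing both gave whole counts, within 0.004, for 16296 of 16299 deposited genes, and not for Dct, Pmel and Tyrp1. On simulated data 2500 of 2500 genes were recovered exactly. Recovered totals of 45.7 to 67.9 M (mega) counts make counting error small beside the spread between libraries, except at a few counts, where the limit for 0 is 3 counts.

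The main test was limma 3.58.1 (R 4.3.3) with trend and robust moderation on all 9 libraries, group as the only term, and Benjamini-Hochberg adjustment over all genes at 0.05. No gene was filtered and no pseudocount added, since the values were already log2. The 4 genes were tested in knockout tail against control tail, which shares its knockout tail libraries with the contrast that chose them. The contrasts that hold the back libraries are given for them as a description. The 4 genes, the 11 pathway lists, the 13 marker lists and the alternatives were chosen with earlier results of these data known. Genes named are the 4, list members, 2 measured neighbours per side, the 5 highest correlations per gene and the 10 largest called falls in back. Symbols matched GENCODE vM21 for 15905 genes. Same-numbered libraries were checked for pairing, and their correlations did not all exceed 0.1, so numbers were not used as a block. Alternatives were a library set term, a replicate block, other moderation, quantile normalisation, a filter on the lowest 25% of genes, limma-voom, pseudocounts of 1 and 10, and left-out libraries. Python 3.11.15 was used with pandas 2.3.3 and numpy 2.4.6.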

Additional observations from a re-analysis of the deposited data

How the results depend on the processing

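The knockout tail minus control tail differences of the 4 genes kept a positive sign and missed the threshold in all 19 alternatives each. With 1 library left out they ranged from 0.07 to 0.74 for Napsa, 1.17 to 1.68 for Arfgef3, 0.52 to 0.90 for Bfsp2 and 0.81 to 1.14 for Mme. The lowest limma adjusted p over the alternatives was 0.78, 0.27, 0.41 and 0.28. Genes called in that contrast numbered 10 with the library set as a term, and 4 with log2 of the recovered normalised count plus 1 or plus 10.

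Genes called in back against knockout tail numbered 244, and 71 with the library set term, 21 with the replicate block, 139 with plus 1, 41 with plus 10 and 1637 with the larger set of 7 libraries alone. Without the first and second back library, which leaves 1 back library, limma called 0, while 1624 genes had an unadjusted p under 0.05. With 1 library left out the count ranged from 3 to 1972, lowest without the third knockout tail library and highest without the third back library. Each of the other 7 left-out libraries gave 6 to 111, so all 9 moved the count by over 1.5 times. All 4 genes stayed among those called lower in 9 of 19 alternatives, 2 of them in 3, 1 in 6 and 0 in 1, and Arfgef3 was lost only without the first and second back library. With the replicate block 10 genes were called lower, Arfgef3 and Napsa among them. Apart from the number of libraries, the cause was not tested. The replicate block called 0 genes in knockout tail against control tail.

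The back minus knockout tail differences stayed negative throughout. In the order Napsa, Arfgef3, Bfsp2, Mme they were -11.01, -12.11, -10.23 and -6.23 by limma-voom, -10.41, -11.55, -9.66 and -6.21 with plus 1, and -8.18, -8.86, -7.44 and -5.69 with plus 10, scales that compress low counts less. Without the first and second back library Napsa was -3.31, Bfsp2 -2.86 and Mme -2.74, and with the larger set of 7 alone, which lacks the third knockout tail and the third back library, Bfsp2 was -5.03. Back minus control tail gave -10.88, -10.37, -9.41 and -4.96 by limma-voom, -10.34, -9.72, -8.87 and -4.91 with plus 1, and -8.10, -7.04, -6.65 and -4.39 with plus 10. Without the first and second back library it gave -2.98 for Napsa, -2.16 for Bfsp2 and -1.79 for Mme. Leaving out 1 library gave ranges of -5.30 to -4.30, -4.64 to -4.12, -4.84 to -3.85 and -3.86 to -3.11 for back minus knockout tail.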
